A study of Mus musculus with 37 samples.

Results

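The mitochondrial ribosomal protein genes were taken as all array probes whose platform gene symbol begins with Mrpl or Mrps followed by a digit. That gave 104 of the 24620 probes on the array, for 76 genes, with 64 probes for 48 Mrpl genes (named for the large subunit) and 40 probes for 28 Mrps genes (named for the small subunit). The samples were left hippocampus of 37 female CSS15F2 mice aged 3 to 4 months, an F2 population of a chromosome substitution strain in which the host was C57BL/6J and the donor of chromosome 15 was A/J, so that all animals formed a single group without treatment. The study put its mice through behavioural tests in a fixed order: open field, automated home cage, elevated plus maze and light-dark box. Tissue was punched from frozen brain, and each mouse was hybridised to its own Illumina MouseRef-8 array. Genotypes were not used here. No pair of arrays held identical values.

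The mitochondrial ribosome, or mitoribosome, is built from RNA encoded by mitochondrial DNA and from proteins encoded by nuclear genes, made in the cytosol and imported. It translates the few proteins that mitochondrial DNA encodes, all of them subunits of the respiratory chain complexes and ATP synthase, whose remaining subunits are nuclear-encoded too. The mitoribosomal proteins are partly descendants of bacterial ribosomal proteins and partly proteins that bacterial ribosomes lack. Neurons depend on oxidative phosphorylation (OXPHOS), and loss of some single mitoribosomal proteins causes combined respiratory chain deficiency in humans.

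Arrays differed in how much they detected. The number of probes with a detection p-value under 0.01 ran from 5281 to 10724 per array, and correlation between arrays over the detected probes ran from 0.80 to 0.99. Values below are on a log2 scale after background correction and quantile normalization across the 37 arrays, and a probe entered the tests when it was detected on at least 19 arrays. Depth is not defined for arrays, so the number of arrays limits the precision. The choroid plexus markers (*Ttr*, *Kl*, *Clic6*) summed to between 116 and 21905 linear units over mice, with a median of 1665. None of these 3 probes passed the test against the OXPHOS score described below, and whether tissue beside the hippocampus was included was not tested. All 4 detected probes of the neuronal markers *Syn1*, *Syt1* and *Stmn2* fell with that score, beside 35.8% of the array. *Snap25* and *Nefl* had no detected probe. With values and score both recomputed without quantile normalization, only 0.082% of the array fell. The part of neuron content in these falls was not tested.

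Of the 104 mitoribosomal probes, 83 (79.8%) were detected, against 34.7% of all probes on the array. They represented 67 of the 76 genes, 42 Mrpl and 25 Mrps. Detection held on all 37 arrays for 57 probes and on 19 to 36 arrays for 26, while 7 probes were detected on 1 to 18 arrays and 14 on none. The 9 genes without a detected probe were *Mrpl15*, *Mrpl21*, *Mrpl32*, *Mrpl39*, *Mrpl41*, *Mrpl45*, *Mrps14*, *Mrps22* and *Mrps36*. Among them, *Mrpl45* encodes a protein near the polypeptide exit at the inner membrane, *Mrpl32* a large-subunit protein cleaved after import, and *Mrps36* a protein now assigned to the 2-oxoglutarate dehydrogenase complex rather than the ribosome. A probe at background gives only an upper bound on its transcript, and 12 further undetected probes belonged to genes that had another, detected probe. These were 2 probes of *Mrpl1*, 2 of *Mrpl48*, 2 of *Mrpl49* (detected on 18 and 13 arrays), and 1 each of *Mrpl13*, *Mrpl19*, *Mrpl47*, *Mrps10*, *Mrps25* and *Mrps31*.

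The spread of the 83 detected probes over mice was close to that of the array, with a median SD of 0.41 log2 units beside 0.42 over all 8541 detected probes. The steadiest were *Mrps30*, which despite its name encodes a protein of the large subunit, at 10.24 ± 0.16 (SD, n = 37), the *Mrpl3* probe p5270025 at 9.76 ± 0.17 and the *Mrps5* probe p6130181 at 9.18 ± 0.21. The most variable were the other *Mrps5* probe, p2450673, at 6.63 ± 1.03, then *Mrpl52* at 6.61 ± 1.02 and *Mrpl9* at 7.40 ± 0.99. *Mrps5* thus had probes at both ends of the range. Over mice, *Mrps30* ran only from 9.87 in mouse 129 to 10.74 in mouse 101, with a median of 10.22.

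**Figure D1:**
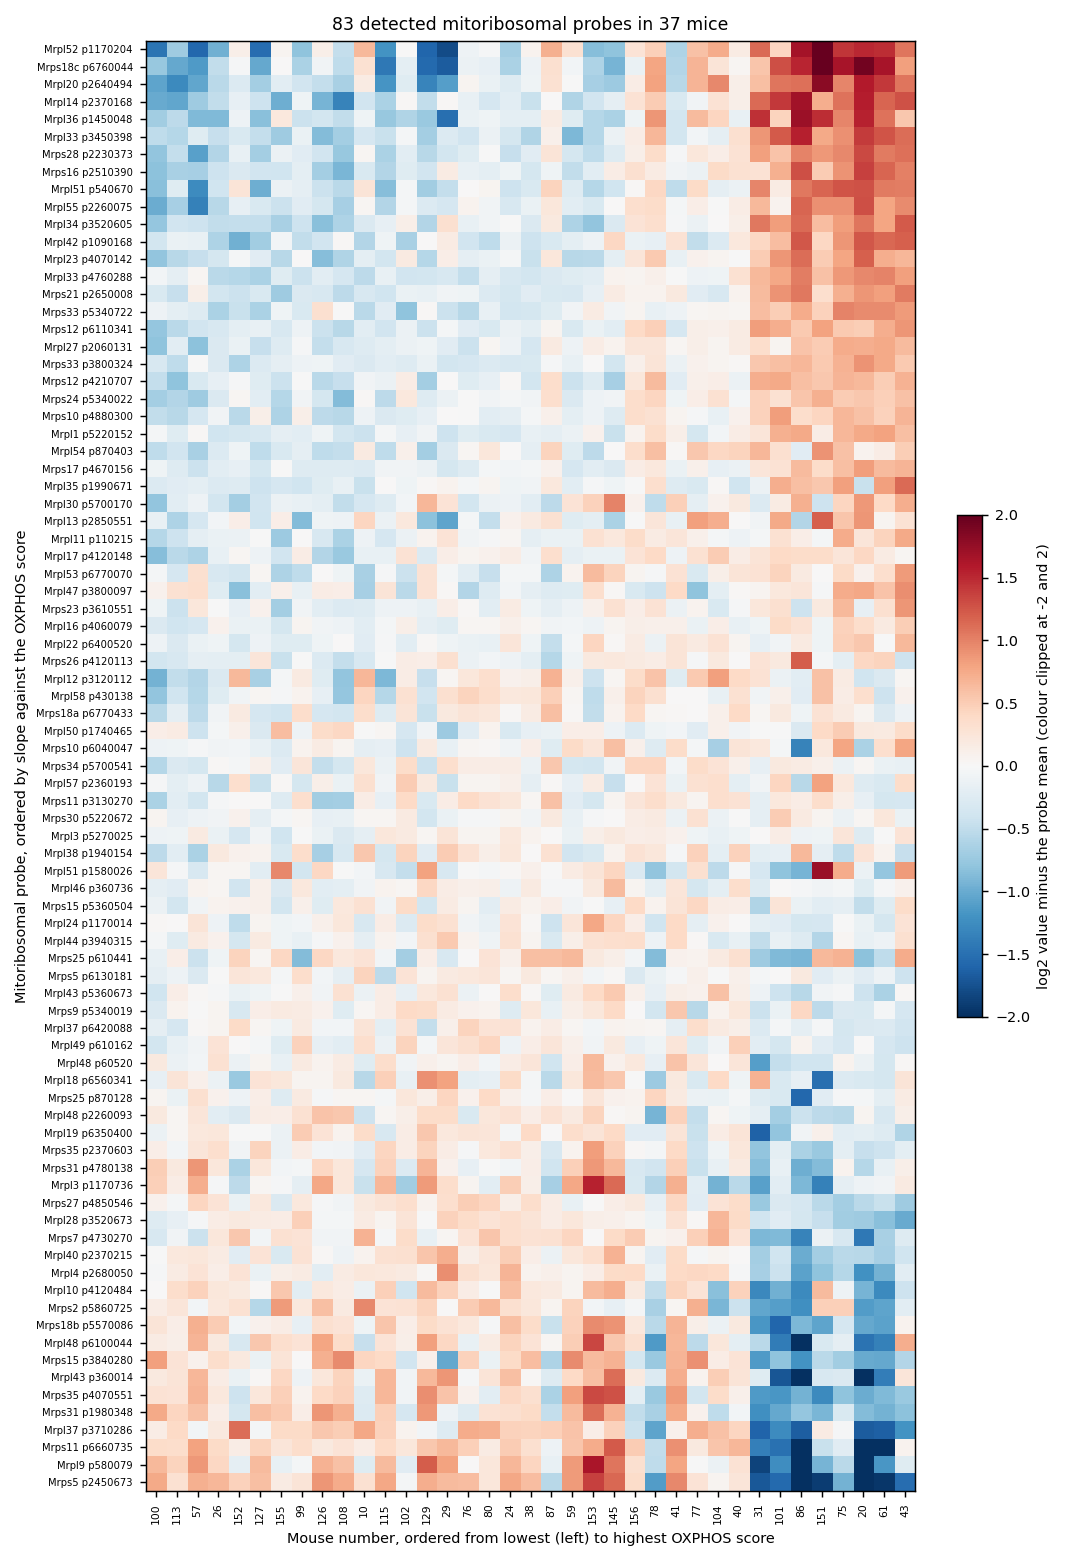
Log2 value of each of the 83 detected mitoribosomal probes minus its mean over mice (colour), with probes in rows ordered by slope against the OXPHOS score and the 37 mice in columns ordered by that score. The 8 mice on the right (31, 101, 86, 151, 75, 20, 61 and 43) are mostly high for the upper rows and mostly low for the lowest rows, as scaled by quantile normalization. With values and score both recomputed without it, all 83 slopes are above 0.

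The first comparison asked which mitoribosomal genes rise or fall over mice with an average of the nuclear genes of the respiratory complexes. An OXPHOS score was computed per mouse as the mean of 64 standardized detected probes for subunits of complexes I to V, none of them mitoribosomal, and scaled to an SD of 1. Over 37 mice, 36 of the 83 mitoribosomal probes (43.4%) rose with this score and 22 (26.5%) fell, by limma with Benjamini-Hochberg adjustment over 8541 probes at an adjusted p under 0.05. The array as a whole gave 27.6% rising and 35.8% falling. The median slope was 0.06 log2 units per SD of score for the mitoribosomal probes and −0.04 for all probes. Most of the score's own probes rose with it, but not all. *Ndufa10* (−0.44 ± 0.06), *Sdhb* (−0.27 ± 0.07), *Atp5b* (−0.20 ± 0.03), *Atp5d* (−0.16 ± 0.05) and *Uqcrc1* (−0.11 ± 0.04) fell, and some others did not pass. The falling ones are named after their values were seen. Large-subunit symbols rose in 23 and fell in 10 of 49 probes, and small-subunit symbols rose in 13 and fell in 12 of 34; the difference between subunits was not tested.

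The strongest rise was that of *Mrps16*, a small-subunit protein with a bacterial counterpart. Its level ran from 7.89 in mouse 108 through a median of 8.65 to 10.17 in mouse 20, with a slope of 0.54 ± 0.04 (SE) and adjusted p = 3.05e-13 (limma). The 6 highest *Mrps16* values belonged to mice 20, 86, 61, 43, 75 and 101, all among the 8 mice of highest score. *Mrps28*, another small-subunit gene, ran from 7.45 in mouse 57 through 8.39 to 9.87 in mouse 20, with a slope of 0.55 ± 0.05. For *Mrps28* the 8 highest mice were exactly the 8 of highest score.

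*Mrpl14* encodes a large-subunit protein on the face that meets the small subunit. It ran from 8.57 in mouse 108 through a median of 9.75 to 11.59 in mouse 86, the widest of the 5 leading risers, with a slope of 0.69 ± 0.06 and adjusted p = 3.47e-12. *Mrpl55*, a large-subunit protein that bacteria lack, ran from 7.80 in mouse 57 through 9.12 to 10.44 in mouse 20, with a slope of 0.51 ± 0.05. *Mrps12*, a conserved protein of the decoding centre, ran from 10.74 in mouse 100 through 11.37 to 12.38 in mouse 43 on probe p6110341, with a slope of 0.39 ± 0.04. The steepest slopes of all were those of *Mrpl52* (0.78 ± 0.10) and of *Mrps18c* (0.77 ± 0.09) and *Mrpl20* (0.72 ± 0.07), the last 2 named after their values were seen.

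The largest fall was on the *Mrps5* probe p2450673, for a conserved protein of the small subunit. It ran from 4.45 in mouse 86 through a median of 6.94 to 8.0 in mouse 153, with a slope of −0.80 ± 0.10 and adjusted p = 2.57e-08. Its mice formed separate groups, with mouse 78 and the 8 mice of highest score between 4.45 and 5.68 and the other 28 mice between 6.07 and 8.0. The lower group held all 6 arrays that detected under 7000 probes (mice 78, 31, 101, 86, 20 and 61). The lowest value of p2450673 was close to the mean of the undetected *Mrpl19* probe p7000121 (4.47), so its low values may give only bounds. The steadier *Mrps5* probe p6130181 did not pass (slope −0.06, adjusted p = 0.15, limma). The *Mrps31* probe p1980348 (slope −0.43 ± 0.08), the *Mrpl37* probe p3710286 (−0.52 ± 0.09), *Mrps27* (−0.23 ± 0.05), whose protein carries pentatricopeptide repeats, and *Mrpl9* (−0.62 ± 0.12) followed in strength. *Mrpl9* was at 4.56 in mouse 86 and 4.61 in mouse 20, with a median of 7.62 and a highest value of 9.04 in mouse 153. It was detected on 32 arrays and *Mrpl37* p3710286 on 30, so their lowest values give only bounds. The other *Mrpl37* probe, p6420088, did not pass (slope −0.08, adjusted p = 0.061, limma). Falls were 14 of 26 members detected on 19 to 36 arrays and 8 of 57 detected on all 37. Over the array these classes fell in 45.9% and 27.0%.

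**Figure D2:**
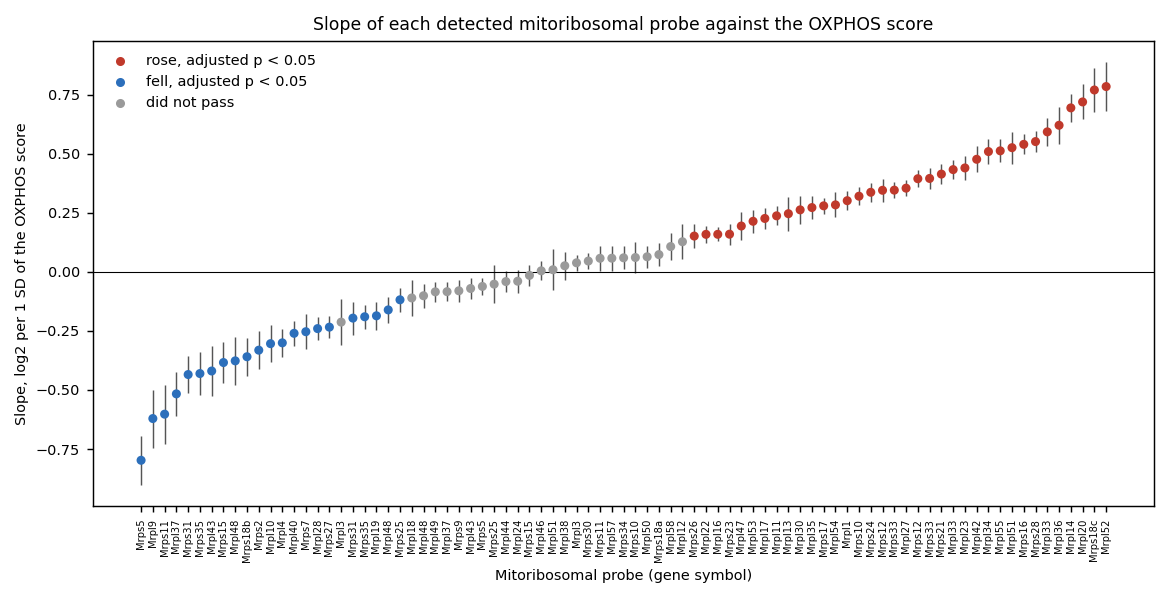
Slope of each of the 83 detected mitoribosomal probes against the OXPHOS score, in log2 units per SD of score over 37 mice, with bars of 1 SE. The 36 probes that rose are red, the 22 that fell are blue and the rest are grey. Slopes run from −0.80 for a *Mrps5* probe to 0.78 for *Mrpl52*. With values and score both recomputed without quantile normalization, all 83 slopes are above 0.

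The falls, unlike most of the rises, were lost without the mice of highest score. Without the 8 mice of highest score, 29 mitoribosomal probes rose and 0 fell, against 11.8% rising and 9.58% falling over the array, and 25 of the 29 were among the 36 above. For this fit the score was recomputed and scaled to an SD of 1 within the remaining mice. Their scores in the first fit ran only from −1.59 to 0.56, so slopes per SD in the 2 fits have different units. Of the 22 probes that had fallen, 14 still had slopes below 0, and for *Mrps5* p2450673 the slope was −0.12 (adjusted p = 0.34). *Mrps16* had a slope of 0.27 (adjusted p = 0.000146) and *Mrps28* one of 0.26 (adjusted p = 0.000756), so the rise of these genes was present within the other 29 mice. The steepest of the 29 were *Mrpl52* at 0.39 ± 0.12 and *Mrpl20* at 0.39 ± 0.08.

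The score moved with the number of probes an array detected, with r = −0.75 and rho = −0.72 over 37 mice (permutation p = 1e-05 for each and, for r, after adjustment over 3 relations, the smallest the resamples can give). Without the 2 arrays farthest from the median r was −0.70, within the chip set of 26 arrays −0.80, within the set of 11 arrays −0.44, and with values centred within chips −0.66. With the number of detected probes as a covariate, 38 mitoribosomal probes rose (45.8%) and 7 fell (8.43%), against 17.2% and 19.7% over the array. Of the 36 rising probes, 34 passed in this fit and 23 passed both in it and without the 8 mice. The 7 falling probes were both probes of *Mrps5*, *Mrpl28*, *Mrps27*, *Mrpl38*, *Mrpl4* and *Mrpl49*, with slopes between −0.31 and −0.15. They are named here because they were few, after their values were seen.

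Direction also depended on the scaling. Leaving out quantile normalization changed both the values and the score, which was recomputed from those values. The median slope of all detected probes was then 0.26 rather than −0.04, and all 83 mitoribosomal slopes were above 0. Of these, 54 rose while 0 fell, beside 51.8% rising and 0.082% falling over the array. The parts of the changed values and the changed score were not tested. Relative to that shifted median, 34 of the 36 risers stayed above it and 11 of the 22 fallers stayed below it. Within the chip set of 11 arrays, whose scores ran only from −1.01 to 0.55, 0 mitoribosomal probes passed, beside 0.105% rising and 0.398% falling over the array. In the set of 26 arrays 36 rose and 20 fell, beside 25.8% and 33.5% of the array.

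**Figure D3:**
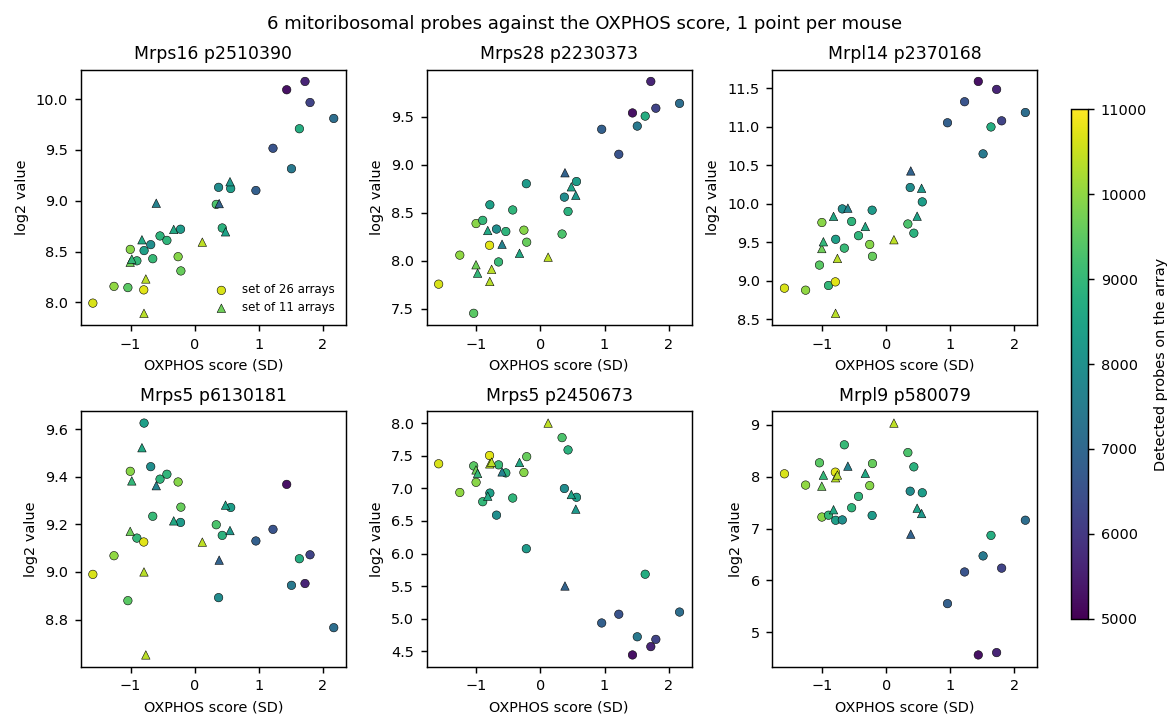
Log2 value of 6 mitoribosomal probes against the OXPHOS score, with 1 point per mouse, circles for the chip set of 26 arrays, triangles for the set of 11, and colour for the number of detected probes on the array. *Mrps16*, *Mrps28* and *Mrpl14* rise with the score, and the lowest values of *Mrps5* p2450673 and *Mrpl9* are those of mouse 86, which has the fewest detected probes; both falls turn above 0 without quantile normalization.

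Probes were also divided by their target names, a division chosen after the values were seen. It separates 14 tested probes whose target names carry a short serial number. The other names are of several forms, and only 38 of all 104 mitoribosomal target names hold a gene number. Of the 14 probes, 1 rose and 10 fell, whereas 35 rose and 12 fell of the other 69. Over the array, probes with such names rose in 24.6% and fell in 44.1%, and the others rose in 27.9% and fell in 35.0%. The part of probe design in the falls was not tested.

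By origin of the protein, probes for large-subunit proteins with a bacterial counterpart rose in 17 and fell in 5 of 27, and those for large-subunit proteins without one rose in 6 and fell in 5 of 22. Small-subunit proteins with a bacterial counterpart rose in 9 and fell in 6 of 21 probes, and those without one rose in 4 and fell in 6 of 13. The division follows the symbols, so *Mrps18a* (slope 0.07 ± 0.05) and *Mrps30* (0.05 ± 0.03), both large-subunit proteins and the former named for that reason, stand with the small subunit, and neither passed the test.

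Other genes of mitochondrial gene expression divided in the same fit, in which 27.6% of the array rose and 35.8% fell. Among 5 probes for mitoribosomal proteins with other symbols, *Chchd1*, a small-subunit protein, rose with a slope of 0.41 ± 0.03, while a *Dap3* probe (p5420593, −0.75 ± 0.11) and *Ptcd3* (−0.32 ± 0.08) fell. *Dap3*, a GTP-binding protein of the small subunit, had further probes at −0.09 ± 0.04 and −0.04 ± 0.03, neither of which passed. Mitochondrial translation factors rose in 3 and fell in 1 of 7 probes. *Slirp*, which stabilises mitochondrial mRNAs, rose on both its probes (0.56 ± 0.05 and 0.87 ± 0.10). Ribosome assembly and rRNA genes rose in 4 and fell in 7 of 17, among the latter the helicase gene *Ddx28* (−0.55 ± 0.07) and all 3 probes of the GTPase gene *Noa1* (−0.52 ± 0.07, −0.51 ± 0.08 and −0.13 ± 0.05).

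The mitochondrial tRNA synthetases, which charge the tRNAs the mitoribosome uses, rose in 0 and fell in 6 of 9 probes, led by *Tars2* (−0.57 ± 0.07), *Wars2* (−0.42 ± 0.06) and *Lars2* (−0.46 ± 0.07). Genes of mitochondrial DNA expression rose in 3 and fell in 4 of 9. Over the array 27.6% rose and 35.8% fell, and without quantile normalization 0.082% fell. Among the genes of mitochondrial DNA expression, *Ppargc1b*, a transcriptional coactivator of mitochondrial biogenesis, fell by 0.66 ± 0.08. With the number of detected probes as a covariate, the synthetases rose in 1 and fell in 3 of 9, beside 17.2% and 19.7% of the array.

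Markers of other cell types moved with the same score. Microglial *C1qa* (0.72 ± 0.08), *C1qc* and *C1qb* rose, whereas *Cx3cr1* fell (−1.01 ± 0.11) and the remaining detected microglial probe did not pass. Endothelial *Ly6c1* (0.45 ± 0.06) and *Cldn5* (0.18 ± 0.07) rose, *Flt1* (−0.37 ± 0.05) and *Pecam1* (−0.20 ± 0.06) fell, and the remaining detected probe did not pass. The erythroid genes *Hba-a1* (0.48 ± 0.07) and *Alas2* (0.41 ± 0.08) rose, with their summed level between 2671 and 15005 linear units over mice. Astrocyte markers fell in 4 and rose in 0 of 6 probes, and oligodendrocyte markers fell in 2 and rose in 1 of 6. Among hippocampal subfield markers, *Spink8* (0.81 ± 0.12) and *Prox1* (0.15 ± 0.06) rose and *Fibcd1* (−0.36 ± 0.09) and *Wfs1* (−0.35 ± 0.10) fell. The remaining detected subfield probes and the detected thalamic probes did not pass. Over the array 35.8% fell and 27.6% rose. The part of tissue composition in the mitoribosomal slopes was not tested, and in bulk tissue fewer cells of a type and less RNA per cell cannot be told apart.

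The cytosolic ribosome, whose proteins come from a separate set of nuclear genes, was used for a parallel comparison. Against a score of 50 detected Rpl and Rps probes, 38 mitoribosomal probes rose and 20 fell, beside 25.7% and 31.7% of the array. *Mrpl55* led with 0.52 ± 0.05 (adjusted p = 2.96e-10, limma), followed by *Mrps28* with 0.52 ± 0.05, and the *Mrps5* probe p2450673 (−0.65 ± 0.13) and the *Mrps31* probe p1980348 (−0.40 ± 0.08) led the falls. This score was also related to the number of detected probes (r = −0.67, rho = −0.69, permutation p = 1e-05 for each, r = −0.63 without the 2 farthest arrays, −0.69 and −0.52 within the sets of 26 and 11 arrays). With that number as a covariate 27 rose and 0 fell, beside 9.79% and 7.82% of the array. With values and score both recomputed without quantile normalization, 79 rose and 0 fell, beside 84.2% and 0.0702% of the array. The median slope of the array moved to 0.36. There all 20 probes that had fallen had slopes above 0, and 55 of the 83 lay above the array's median. Of the 38 risers only 22 stayed above that median, and of the 20 fallers 6 stayed below it.

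*Ly6a*, a surface protein gene on chromosome 15 that was of interest to the study, varied between 7.34 in mouse 100 and 11.75 in mouse 20. Per log2 unit of *Ly6a*, 33 mitoribosomal probes rose and 21 fell, beside 24.3% and 32.5% of the array. The strongest were *Mrpl55* (0.45 ± 0.06) and *Mrpl34* (0.46 ± 0.06) upward and *Mrps5* p2450673 (−0.73 ± 0.12) and *Mrpl9* (−0.63 ± 0.12) downward. *Ly6a* was itself related to the number of detected probes (r = −0.66, rho = −0.62, permutation p = 1e-05 and 5e-05, r = −0.56 without the 2 farthest arrays, −0.72 and −0.35 within the sets of 26 and 11 arrays). With that number in the fit 0 of the 83 mitoribosomal probes passed, beside 0.0937% rising and 0.0351% falling over the array. With *Ly6a* and all other values taken without quantile normalization, 14 rose and 0 fell, beside 3.95% and 0% of the array. Slopes were still below 0 in 20 of the 21 probes that had fallen.

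Against the number of detected probes itself, 27 mitoribosomal probes rose and 37 fell, beside 37.6% and 29.4% of the array. Per 1000 further detected probes, *Mrpl23* fell by 0.35 ± 0.03, *Mrpl14* fell by 0.50 ± 0.04 and the *Mrpl33* probe p3450398 fell by 0.44 ± 0.04, whereas *Mrps5* p2450673 rose by 0.64 ± 0.06, *Mrps15* p3840280 by 0.40 ± 0.04 and *Mrps31* p1980348 by 0.39 ± 0.04. Rises were 16 of 26 members detected on 19 to 36 arrays and 11 of 57 detected on all 37. Over the array these classes rose in 51.4% and 25.7%. A partly detected probe passes the filter through the arrays where it is high, and the part of this in the rises was not tested. Without the 6 arrays that detected under 7000 probes, 10 rose and 31 fell, beside 24.4% and 25% of the array. Without quantile normalization 65 rose and 2 fell, beside 90.5% and 1.43% of the array, and 37 of the 83 lay above the array's median slope of 0.40.

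**Figure D4:**
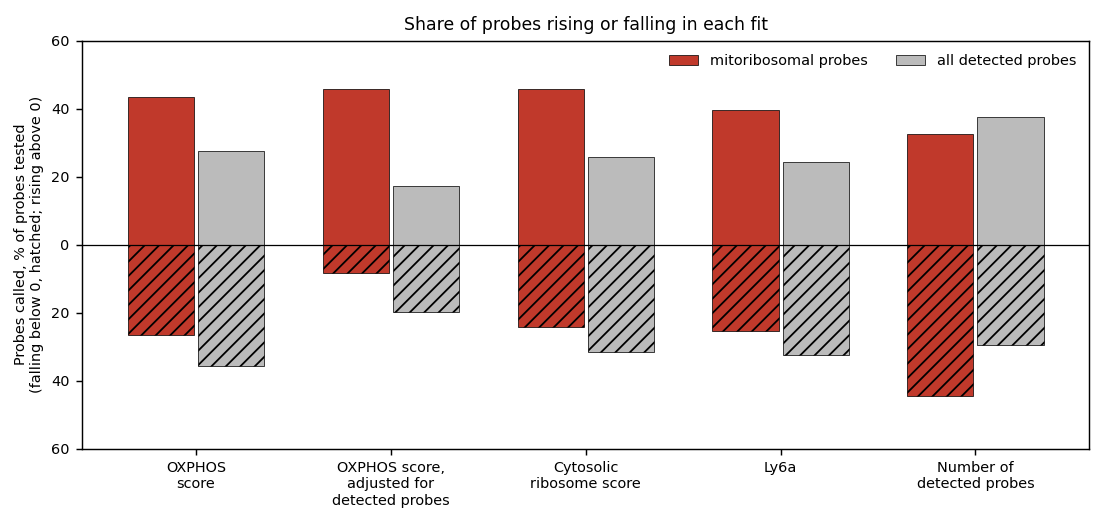
Percentage of probes that rose (above 0) or fell (below 0, hatched) in each of 5 fits, for the 83 detected mitoribosomal probes (red) and all 8541 detected probes (grey). Against the OXPHOS score with the number of detected probes as a covariate, 45.8% of the mitoribosomal probes rose beside 17.2% of the array.

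Chips were a technical grouping, with chip numbers given in the labels and 13 chips of 1 to 6 arrays. The labels name no sets. The chips were divided here by the leading digits of their numbers into a set of 26 and a set of 11 arrays. Between the sets, 0 of 83 mitoribosomal probes and 0% of the array differed (limma), with 13 of the 83 (15.7%) and 9.46% of the array at an unadjusted p under 0.05. Between the 13 chips, 0 mitoribosomal probes passed beside 0.843% of the array, with 21 of the 83 (25.3%) and 16.5% of the array at an unadjusted p under 0.05. With chip as a block in the OXPHOS fit, 34 rose and 18 fell, beside 23.6% and 27.7% of the array. Of the 8 mice of highest score, mice 43, 61, 20 and 86 shared a chip.

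Probes of the same gene offered a check within the family. Of the 20 genes with several probes, 15 had several detected ones, which gave 22 relations between probes, computed within groups of at least 6 mice where a probe's values formed separate groups. Of these, 10 passed a permutation test of r after adjustment over the 22, and 18 had r above 0. Both *Mrps12* probes rose together (r = 0.91, rho = 0.90, n = 37, permutation adjusted p = 4.4e-05). The probes of *Mrps35* (r = 0.83, rho = 0.77), *Mrps31* (r = 0.82, rho = 0.84) and *Mrpl43* (r = 0.73, rho = 0.78, in 33 mice) were related with the same adjusted p, as was 1 pair of *Mrpl48* probes (r = 0.73, rho = 0.77). The other *Mrpl48* pairs were at 0.44 and 0.59. *Mrps33* gave r = 0.52 in 29 mice and *Mrpl37* r = 0.51 in 30 mice (permutation adjusted p = 0.0111 for each), and *Mrpl33*, whose probes both rose with the OXPHOS score, gave r = 0.85 in 8 mice (exact permutation, adjusted p = 0.0185) and 0.39 in 28 mice (adjusted p = 0.0855).

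For the other genes r did not pass the test, and it depended on the scaling. The *Mrps5* probes were at r = −0.29 and rho = −0.44 in 28 mice (permutation adjusted p = 0.21 for r and 0.0439 for rho). For *Mrps11* r was −0.04 in 28 mice, for *Mrpl51* 0.09, for *Mrps10* 0.12, for *Mrps15* 0.20, for *Mrpl3* 0.26 and for *Mrps25* −0.13 in 36 mice, with permutation adjusted p between 0.20 and 0.85. In its other 9 mice *Mrps11* gave r = 0.44 and *Mrps5* r = −0.23 (exact permutation, adjusted p = 0.32 and 0.60). Without quantile normalization, where most pairs of probes on the array correlated positively, r was 0.63 for *Mrps5* in the 28 mice, 0.55 for *Mrps11*, 0.43 for *Mrpl51*, 0.87 for both *Mrps10* and *Mrps15*, 0.72 for *Mrpl3* and 0.64 for *Mrps25*. In the OXPHOS fit, 5 of the 15 genes had all their detected probes called in the same direction, 9 had only some probes called, and 1 had none. None had probes called in opposite directions in that fit. Against the number of detected probes, *Mrps11* did, with p3130270 at −0.09 and p6660735 at 0.54 per 1000 detected probes. In the OXPHOS fit the *Mrps11* probe p3130270 had a slope of 0.06 ± 0.05 and p6660735 one of −0.60 ± 0.12, and for *Mrpl51* p540670 rose by 0.53 ± 0.07 while p1580026 was at 0.01 ± 0.09.

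**Figure D5:**
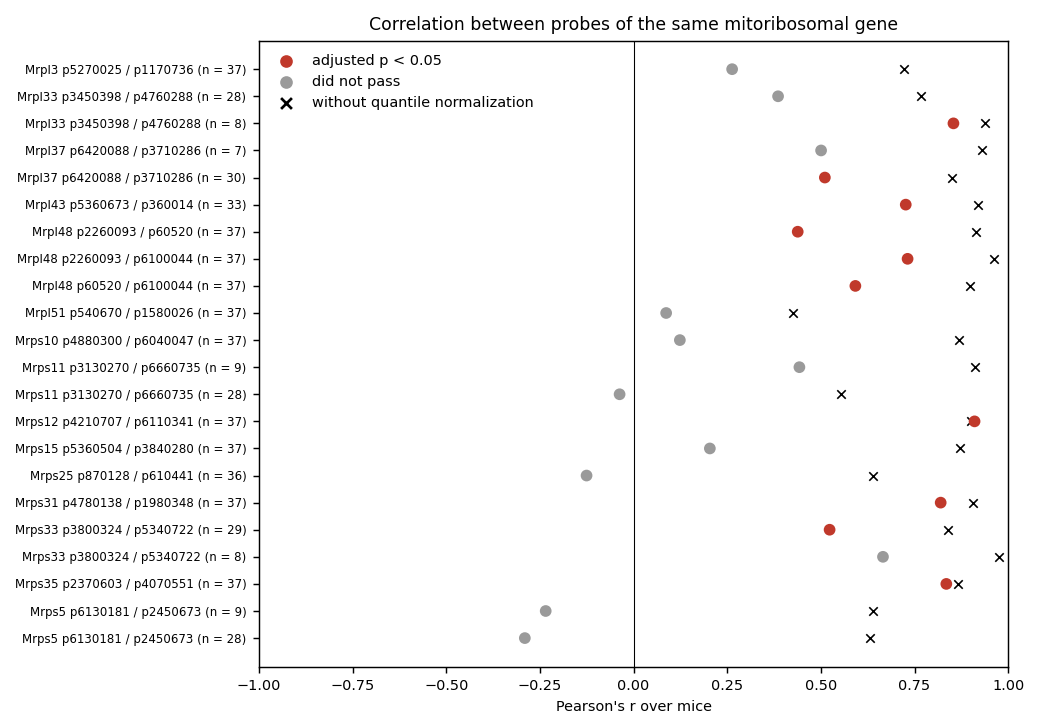
Pearson's r over mice between detected probes of the same mitoribosomal gene (circles, red where the permutation test passed after adjustment over the 22 relations), with n mice in each label, and the same r without quantile normalization (crosses). The circles run from −0.29 for *Mrps5* to 0.91 for *Mrps12*, and all crosses lie above 0.

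Between all 3403 pairs of mitoribosomal probes the median r over mice was 0.06 and the median absolute r 0.42, beside 0.01 and 0.32 over pairs of all detected probes. These pairs share arrays and are given as a description. Values ran from −0.93 between *Mrpl33* p3450398 and *Mrps5* p2450673 to 0.96 between *Mrpl14* and *Mrpl23*. The median was 0.08 within Mrpl, 0.04 within Mrps and 0.07 between them. Other close pairs were *Mrpl20* with *Mrps18c* (0.96), *Mrpl14* with *Mrps16* (0.95) and *Mrpl55* with *Mrps28* (0.95), so the closest pairs joined large- and small-subunit genes as well as genes of a single subunit. Without quantile normalization the median rose to 0.64, beside 0.67 over all probes.

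Promoters of the members were read from RefSeq (GRCm38.p6) as 300-base windows around the annotated start, which matched 67 of the 76 genes with 71 windows. Letters searched on both strands were GCGCATGC for NRF-1 and CCGGAAGT for ETS factors such as GABP, both regulators of mitochondrial genes, AAGATGGC for YY1 and TATAAA for the TATA box, none of which contains another. The NRF-1 letters were in 11.3% of member windows and 2.71% of all 32851 windows, the ETS letters in 16.9% and 3.89%, the YY1 letters in 16.9% and 2.75%, and TATAAA in 7.04% and 13.6%. In windows of protein-coding genes these shares were 3.52%, 5.15%, 3.05% and 12.6%. Median GC was 58% in member windows, 52.7% in all windows and 56.3% in protein-coding ones, and its part in the shares was not tested. At least 1 of the NRF-1, ETS and YY1 letters was in 40.8% of member windows, against 8.83% of all and 10.99% of those of protein-coding genes. Among genes with a window, 13 of 30 with a rising probe, 9 of 16 with a falling probe and 9 of 22 with a probe that was not called held such letters, a gene with called and uncalled probes counting under each. A match is a run of letters, not a measured site.

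The next windows are shown for *Mrps12* and *Mrpl33*, in which every detected probe rose, for *Mrps27*, which fell with the OXPHOS score with or without the covariate, and for the neighbouring genes *Mrps11* and *Mrpl46*, with motif matches in capitals. Each is written 5′ to 3′ on its own strand. The coordinates are chr7:28741772-28742071 (minus strand) for *Mrps12*, chr5:31613701-31614000 (plus strand) for *Mrpl33*, chr13:99344536-99344835 (plus strand) for *Mrps27*, chr7:78782881-78783180 (plus strand) for *Mrps11*, chr7:78783040-78783339 (minus strand) for *Mrpl46*.
Mrps12: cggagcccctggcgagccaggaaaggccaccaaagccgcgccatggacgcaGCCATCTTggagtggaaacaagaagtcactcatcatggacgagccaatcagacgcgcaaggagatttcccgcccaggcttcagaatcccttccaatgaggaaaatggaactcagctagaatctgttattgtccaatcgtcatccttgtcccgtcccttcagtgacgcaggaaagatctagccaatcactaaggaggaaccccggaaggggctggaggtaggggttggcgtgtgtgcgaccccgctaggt
Mrpl33: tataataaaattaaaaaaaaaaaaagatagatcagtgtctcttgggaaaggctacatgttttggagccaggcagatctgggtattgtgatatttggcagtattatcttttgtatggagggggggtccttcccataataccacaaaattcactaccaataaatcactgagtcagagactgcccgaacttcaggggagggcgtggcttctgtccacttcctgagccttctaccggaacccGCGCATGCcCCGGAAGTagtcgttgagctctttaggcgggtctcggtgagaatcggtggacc
Mrps27: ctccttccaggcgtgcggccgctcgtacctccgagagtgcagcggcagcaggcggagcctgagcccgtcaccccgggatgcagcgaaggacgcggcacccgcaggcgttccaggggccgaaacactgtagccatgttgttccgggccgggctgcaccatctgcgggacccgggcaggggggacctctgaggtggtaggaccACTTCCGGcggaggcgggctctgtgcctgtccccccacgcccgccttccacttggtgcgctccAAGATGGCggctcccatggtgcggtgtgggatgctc
Mrps11: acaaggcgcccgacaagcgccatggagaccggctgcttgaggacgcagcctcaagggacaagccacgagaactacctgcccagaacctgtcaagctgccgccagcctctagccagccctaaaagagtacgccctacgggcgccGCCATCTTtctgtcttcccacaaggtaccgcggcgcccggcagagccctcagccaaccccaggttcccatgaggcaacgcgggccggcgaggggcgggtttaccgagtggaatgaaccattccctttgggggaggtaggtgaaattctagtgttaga
Mrpl46: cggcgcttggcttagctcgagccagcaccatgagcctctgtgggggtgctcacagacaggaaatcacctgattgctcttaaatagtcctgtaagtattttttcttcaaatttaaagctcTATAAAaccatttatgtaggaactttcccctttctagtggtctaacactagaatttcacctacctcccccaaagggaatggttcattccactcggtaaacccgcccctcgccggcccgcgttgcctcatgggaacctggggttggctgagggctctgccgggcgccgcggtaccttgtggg

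The *Mrps12* and *Mrps11* windows hold the YY1 letters on the reverse strand, the *Mrpl33* window holds NRF-1 and ETS letters, the *Mrps27* window holds ETS and YY1 letters, and the *Mrpl46* window holds TATAAA. The *Mrps11* and *Mrpl46* windows lie on opposite strands and overlap by 141 bases, so these small- and large-subunit genes start close together and point apart. *Mrpl46* was at 9.67 ± 0.22 over mice with an OXPHOS slope of 0.00 ± 0.04, and its neighbour's probe p3130270 was at 0.06 ± 0.05. Only *Mrps11* p6660735 fell (−0.60 ± 0.12), and its slope without quantile normalization, with the score recomputed too, was 0.31.

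Such shared starts were common in the family. A window overlapped that of a gene on the other strand for 23 of 67 members (34.3%), against 12.5% of 17492 protein-coding genes. Apart from *Mrpl46* and *Mrps11*, 12 had both genes tested. Of these, 4 members moved in the same direction as their neighbour (*Mrpl47* with *Ndufb5*, itself in the score, *Mrps7* with *Gga3*, *Mrps27* with a probe of *Ptcd2*, and *Mrpl40* with *Hira*), 4 moved in the opposite direction, 1 did both by probe (*Mrpl48* with *Rab6a*), and 3 were not both called.

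The opposite pairs were *Mrps12* with *Sars2*, *Mrpl14* with *Tmem63b*, *Mrpl30* with *Mitd1* and, on probe p2450673 only, *Mrps5* with *Zfp661*. *Sars2* encodes the mitochondrial seryl-tRNA synthetase, and its window overlaps that of *Mrps12* by 246 bases. It ran from 4.54 in mouse 151 through a median of 5.94 to 6.92 in mouse 29, with a slope of −0.18 ± 0.06 (adjusted p = 0.0127, limma), whereas both *Mrps12* probes rose (0.39 and 0.35). Without quantile normalization, with the score recomputed too, *Sars2* was at −0.06 and the *Mrps12* probes at 0.34 and 0.31. *Tmem63b* (−0.33 before) was at 0.21 and *Mitd1* (−0.27 before) at 0.25. *Mrps5* p2450673 (−0.80 before) was at 0.16 and *Zfp661* (0.46 before) at 0.002. Only *Mrps12* and *Sars2* still had slopes of opposite sign there. These neighbours were chosen after their values were seen.

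*Mrpl13* was the only member on chromosome 15, the chromosome that differed between the founders. Its detected probe p2850551 was above background on 25 arrays and ran from 4.76 in mouse 29 through 5.76 to 6.999 in mouse 151, with a rise of 0.25 ± 0.07 per SD of OXPHOS score (adjusted p = 0.00316, limma) and a slope of 0.14 ± 0.08 on *Ly6a* that did not pass (adjusted p = 0.12). *Mrpl38*, of the central protuberance, stayed at 9.80 ± 0.36 with an OXPHOS slope of 0.03 ± 0.06 (adjusted p = 0.72), although it fell by 0.12 ± 0.04 per 1000 detected probes. *Mrps34*, a small-subunit protein, was at 11.32 ± 0.28 with a slope of 0.06 ± 0.05 (adjusted p = 0.28, limma). Without the 8 mice of highest score it rose by 0.16 ± 0.05 per SD of the score rescaled in the other mice.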

How the data were processed

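RNA from 37 mice was hybridised to Illumina MouseRef-8 arrays. The deposited intensities are the authors' BeadStudio signals after background correction, without normalization, and 30.8% were negative. The deposited detection values are a fraction, 1 minus the detection p-value, per the file headers. The authors also deposited log2 values after a variance-stabilizing transformation and robust spline normalization with lumi, used here as an alternative. Intensities were corrected with limma's nec (offset 16), quantile normalized and log2 transformed, and 8541 probes with detection p under 0.01 on at least 19 arrays were tested. Each fit used lmFit and eBayes (limma 3.58.1, R 4.3.3) with Benjamini-Hochberg adjustment over all 8541 probes at 0.05. Scores were means of standardized detected probes. In each alternative they were recomputed from the values, probes and mice of that fit and scaled again to an SD of 1. Fits were run on all 37 mice, against each score, *Ly6a*, the number of detected probes, the chip set and the chip. Alternatives were the authors' values, no quantile normalization, offset 50, other detection filters, chip as a block, each chip set, the number of detected probes as a covariate, and arrays left out. Probes of 1 gene were compared by permutation (100000 resamples, exact with fewer than 10 mice), within groups found by a Gaussian mixture (mclust 6.1.1, BIC gain over 10). Scripts were tested on simulated data. The members, gene lists and tests were chosen with earlier results of these data known. By a rule, the text named genes with several probes, undetected members, the 3 members of highest and lowest SD, up to 5 called members of largest absolute t per direction and fit, *Mrpl38*, *Mrps34*, members on chromosome 15, *Ly6a* and up to 4 genes of each list. Genes outside it are marked in the text. Gene names came from the platform annotation, and *Ly6a* from the study's own probe list. Mice were separate animals, and the precision is limited by their number.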

Additional observations from a re-analysis of the deposited data

How the results depend on the processing

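The totals of rising plus falling mitoribosomal probes stayed within 1.5 times of those reported under the authors' values, offset 50, the other detection filters and the set of 26 arrays. The 2 directions did not always keep their size. With only the 57 probes detected on all 37 arrays tested, the falls were 9 against the OXPHOS score, 7 against the ribosome score and 9 against *Ly6a*, and the rises against the number of detected probes were 11. With chip as a block the falls were 4 against the ribosome score and 9 against *Ly6a*, and without the 6 arrays under 7000 detected probes they were 8, 5 and 8 against the OXPHOS score, the ribosome score and *Ly6a*. Within the set of 11 arrays 0 passed against the OXPHOS score, the cytosolic ribosome score and *Ly6a*, and 25 against the number of detected probes. With that number as a covariate 27 passed against the ribosome score and 0 against *Ly6a*, and with chip as a block 32 against *Ly6a*. Without quantile normalization 14 passed against *Ly6a* and 6 between chips, the median SD was 0.66 and the median absolute r 0.64, and the rise and fall of calls became 54 and 0 against the OXPHOS score, 79 and 0 against the ribosome score and 65 and 2 against the number of detected probes. There the scores were recomputed too. Slopes on the OXPHOS score were 0.16 for *Mrps5*, 0.17 for *Mrps31*, 0.32 for *Mrpl37*, 0.20 for *Mrps27* and 0.26 for *Mrpl9*. Those on the ribosome score were 0.40 for *Mrps5* and 0.28 for *Mrps31*. Leaving out arrays was chosen after seeing the data. Without the 8 mice of highest OXPHOS score 29 passed and the slope of *Mrps27* on the rescaled score was 0.011. Without the 6 arrays under 7000 detected probes 41 passed against the number of detected probes and 3 between chips. The causes were not tested. Probes near background give only bounds. No paired analysis was possible because the mice form a single group.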
